A study of Homo sapiens with 8 samples.

Results

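The 38 genes described here lie in the 4 HOX clusters of the human genome: 10 in HOXA, 10 in HOXB, 9 in HOXC and 9 in HOXD, out of 19126 autosomal protein-coding genes with a single RefSeq entry. They were taken by name and position, but with earlier results of these data known, among them an earlier timing of HOXA3 in the knockout cells described below. Each gene was measured in a 50 kb window centred on it. Each cluster was measured from the first to the last base of its members, in 20 kb bins and with flanks of 500 kb. HOX genes encode homeodomain transcription factors that give cells their place along the body axis. Within a cluster the genes stand in the order in which they are used from head to tail, and the clusters are known as broad domains of Polycomb repression wherever they are silent. Replication timing, the point in S phase at which a stretch of DNA is copied, tends to be early in active and gene-rich chromatin and late in silent, gene-poor chromatin.

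Single-cell EdU sequencing (scEdU-seq) was carried out on RPE-1 hTERT, human cells of the retinal pigment epithelium that divide without limit through added telomerase. The 2 groups were cells with CFAP20 knocked out (CFAP20-KO, written KO) and wild-type cells (WT), and the 8 plates each held both, which gives 16 libraries. Cells of both groups were cultured alike, were given 10 µM EdU, which replicating DNA takes up in place of thymidine, for 15 min, and were fixed in 70% ethanol before sorting. The labels' genotype field names the knockout alone for every plate, while titles and files name both genotypes, and each cell's genotype was taken from the files. The title of the series ties CFAP20, a protein known from cilia and flagella, to RNA polymerase II that has stalled in the path of replication forks. Whether the KO line was 1 clone, and whether each plate was a culture of its own, is not stated in the sources used here, so p-values measure only how plates vary, which may be technical. The files hold DNA positions, so expression of cell type markers or of the HOX genes, and the loss of CFAP20, were not measured.

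The plates held 1746074 to 4181841 fragments, each taken as 1 labelled DNA molecule. The 2430 cells with 1000 or more autosomal molecules, 1140 KO and 1290 WT, were ordered from early to late S phase by the pattern of their labelling. A cell's position is its rank in that order, from 0 (early) to 1 (late), and the timing of a region is the mean position of the cells labelled there, weighted by their molecules. The libraries held 1156248 ± 200847 autosomal molecules in KO and 1805796 ± 526338 in WT (SD, n = 8 plates each), and the mean position of their cells was 0.518 ± 0.0214 in KO and 0.485 ± 0.0198 in WT; the part of both in the timing differences was not tested. Well barcodes are reused between plates: 377 of 378 occur on all 8 plates, and cells were therefore kept apart by plate.

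The 4 clusters fell into an early pair and a middle pair. With both genotypes pooled, HOXB had a timing of 0.186 ± 0.0386 and HOXC of 0.190 ± 0.0409 (SD, n = 8 plates), while HOXD had 0.496 ± 0.0695 and HOXA 0.526 ± 0.0571. With equal weight per labelled cell HOXB had 0.321, HOXC 0.284, HOXD 0.493 and HOXA 0.489. The 200 kb windows centred on HOXB and HOXC were preceded by 6.32% and 11.2% of 13124 autosomal 200 kb bins, and those centred on HOXD and HOXA by 53.9% and 57.5%. HOXA was later than HOXB by 0.340 ± 0.0353 and later than HOXC by 0.336 ± 0.0596, on all 8 plates (two-sided exact permutation of signs by plate, adjusted p = 0.0117 over the 6 pairs; the smallest p that 8 plates allow is 0.00781 before adjustment). HOXD was likewise later than HOXB and HOXC in 8 of 8 plates (adjusted exact p = 0.0117 each). With genotypes pooled, HOXA and HOXD did not differ beyond their spread (difference 0.0305 ± 0.0886, adjusted exact p = 0.441), nor did HOXB and HOXC (difference -0.00374 ± 0.0436, adjusted exact p = 0.789). The pooled values of HOXA and HOXD join genotypes in which the order of the means was opposite. In WT, HOXA had 0.620 ± 0.0648 and HOXD 0.517 ± 0.0561, while in KO HOXA had 0.368 ± 0.0517 and HOXD 0.462 ± 0.124. Their order within a genotype was not tested.

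The genes followed their clusters closely. In 50 kb windows all 10 HOXB genes, and the 5 of 9 HOXC genes with at least 10 molecules on every plate, were earlier than the median of 0.231 over 15894 genes measured in the same way. All 10 HOXA genes and all 9 HOXD genes were later than 0.394, the upper quartile of those genes. Within HOXB the earliest gene was HOXB9 at 0.162 ± 0.0504 and the latest HOXB4 at 0.203 ± 0.0596. Within HOXC the range ran from HOXC9 at 0.167 ± 0.0369 to HOXC4 at 0.192 ± 0.0485, within HOXD from HOXD10 at 0.483 ± 0.0682 to HOXD13 at 0.518 ± 0.108, and within HOXA from HOXA13 at 0.490 ± 0.0941 to HOXA2 at 0.576 ± 0.0874 (SD, n = 8 plates). Differences between genes of 1 cluster were thus smaller than, or close to, the spread of a gene over plates. Windows of neighbouring genes overlap and share molecules; HOXC4, HOXC5 and HOXC6 also overlap as genes, and the windows of HOXA3 and HOXA4 held the same molecules.

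Each cluster was set against the DNA around it. HOXD was later than its 500 kb flanks pooled, by 0.105 ± 0.0684 in 8 of 8 plates (adjusted exact p = 0.0313 over the 4 clusters). The flank at higher coordinates, at 0.327 ± 0.0397, was earlier than the cluster on 8 of 8 plates, and the flank at lower coordinates, at 0.457 ± 0.0451, was earlier on 4 of 8. HOXA lay on a slope, with a timing of 0.770 ± 0.0289 in the flank at lower coordinates and 0.313 ± 0.0320 in the flank at higher coordinates, and it was earlier than both flanks together in 7 of 8 plates (cluster minus flanks -0.0458 ± 0.0387, adjusted exact p = 0.0313). HOXB and HOXC were not called against their flanks, with cluster minus flanks of 0.00413 ± 0.0289 and -0.0101 ± 0.0298 (adjusted exact p = 0.688 and 0.531). That result changed with the choice of cells and weights: in cells of at least 5000 molecules the differences were 0.0495 in HOXB and 0.0494 in HOXC (adjusted exact p = 0.0104 and 0.0156), and with equal weight per labelled cell -0.0597 and -0.117 (adjusted exact p = 0.0156 each). For HOXA the adjusted exact p was 0.641 and for HOXD 0.135 when every labelled cell had equal weight, and with flanks of 200 kb they were 0.141 and 0.0625.

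Labelled molecules per kb, relative to the mean of the autosomes, were 0.846 ± 0.147 in HOXA, 0.829 ± 0.183 in HOXB, 0.700 ± 0.151 in HOXC and 0.964 ± 0.230 in HOXD (SD, n = 8 plates, no test). No stretch of a cluster lacked signal: the 20 kb bins inside the clusters held 97 to 222 molecules each, and their relative density ran from 0.547 in HOXC to 1.25 in HOXD. Within each cluster the timing of the 20 kb bins spanned little, from 0.485 to 0.576 over the 6 bins of HOXA, 0.142 to 0.222 over 11 bins of HOXB, 0.159 to 0.200 over 7 bins of HOXC and 0.437 to 0.560 over 6 bins of HOXD.

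**Figure D1:**
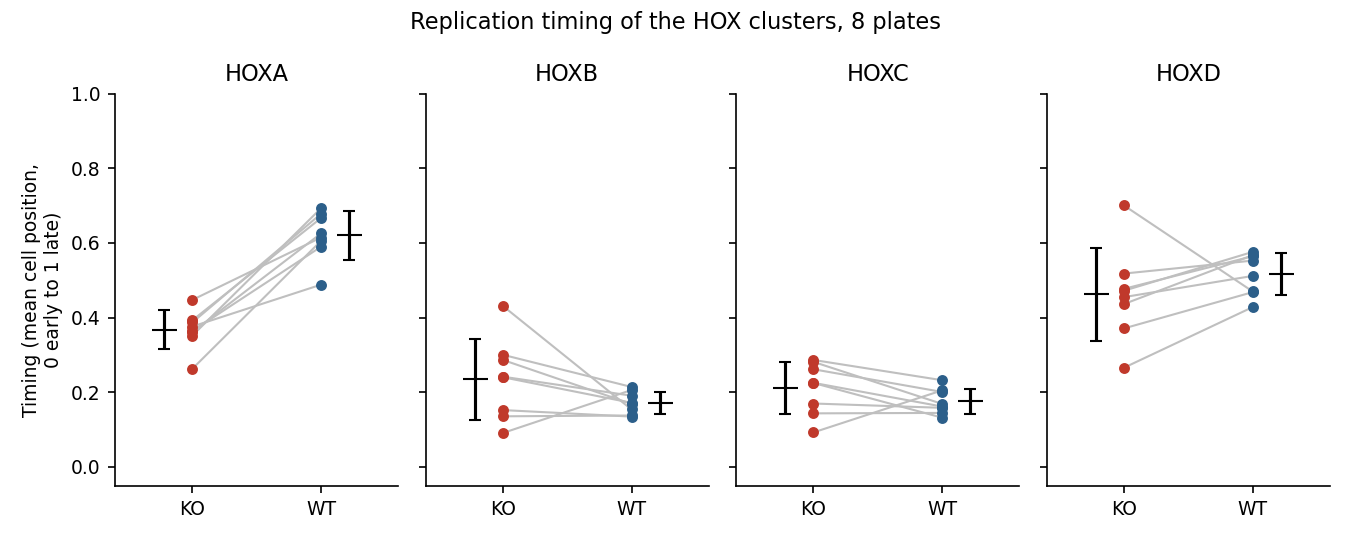
Timing of each HOX cluster (vertical axis, mean cell position from 0 early to 1 late) in KO and WT libraries of 8 plates; grey lines join the libraries of a plate and black bars give mean and SD. For HOXA the KO libraries lie between 0.263 and 0.447, all below the WT libraries, while the genotypes overlap in the other 3 clusters.

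The HOXA cluster replicated earlier in KO cells. From HOXA2 to HOXA13 (GRCh38, chr7:27100354-27200091) its timing was 0.263 at the lowest, 0.370 at the median and 0.447 at the highest over the 8 KO libraries, against 0.488, 0.620 and 0.693 over the 8 WT libraries. The 2 groups did not overlap, and KO was earlier on 8 of 8 plates, by -0.252 ± 0.0808 (KO minus WT, SD). In the 200 kb window centred on the cluster, KO libraries ran from 0.294 through a median of 0.450 to 0.501 and WT libraries from 0.541 through 0.578 to 0.696. Such a separation, with every KO plate below every WT plate, was found in 2.19% of the 13128 windows of 200 kb tested, and the opposite one in 2.32%. With each library centred on its own median, KO minus WT was -0.189 ± 0.0264 (limma estimate and SE, adjusted p = 2.84e-07 over all windows); the window includes HOXA3, whose earlier timing in KO was known when the genes were chosen. In that fit 12.4% of windows were called earlier and 14.9% later in KO, and 1.88% of bins had a lower difference than HOXA. The bins were also split into 4 equal groups by timing. In the group from 0.439 to 0.730, where the HOXA window lies at 0.536, 28.4% of 3281 bins were called earlier and 23.4% later. Calls were thus more frequent among bins of like timing than over all windows.

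This shift was greater in HOXA than in the other clusters. KO minus WT in HOXA was lower than in HOXB by -0.315 ± 0.113, than in HOXC by -0.287 ± 0.0986 and than in HOXD by -0.197 ± 0.167, each on all 8 plates (two-sided exact permutation of signs, adjusted p = 0.0156 over 6 pairs, a comparison added after the values had been seen). The remaining 3 pairs had adjusted exact p of 0.141 to 0.539. The p of the HOXA pairs draws on HOXA3, known to be earlier in KO when the genes were chosen. HOXB and HOXC had WT means of 0.172 and 0.176. Since a position cannot be lower than 0, a shift of -0.252 was not possible there. In the earliest of the 4 groups of bins by timing, which holds both windows, 0 of 3281 bins were called earlier in KO. These 2 comparisons therefore cannot show that the shift was particular to HOXA. When each labelled cell had equal weight, whatever its molecules, the HOXA window differed by -0.105 (adjusted p = 0.000546), and in cells with at least 5000 molecules by -0.138 (adjusted p = 1.91e-06). The cluster's values rest on 266 molecules from 130 KO cells and 476 molecules from 180 WT cells, with at most 8 and 14 from 1 cell.

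The difference ran through the cluster and on into the DNA beyond HOXA13. In 100 kb windows moved in steps of 20 kb, timing 500 kb before the middle of the cluster was 0.814 ± 0.0369 in KO and 0.867 ± 0.0418 in WT, and 100 kb before the middle the genotypes met, at 0.617 ± 0.0707 in KO and 0.615 ± 0.0689 in WT. At the middle, KO was at 0.368 ± 0.0517 and WT at 0.620 ± 0.0648. The widest gap came 100 kb beyond the middle, with 0.277 ± 0.0646 in KO and 0.559 ± 0.0722 in WT (KO minus WT -0.281 ± 0.125, earlier in 8 of 8 plates). KO was earlier in at least 7 of 8 plates in every window from -60 to 320 kb and also at -500 and -480 kb, where the differences were -0.0532 ± 0.0296 and -0.0513 ± 0.0354. From 400 to 460 kb it was later in 7 of 8 plates, with 0.288 ± 0.106 in KO and 0.185 ± 0.0408 in WT at 400 kb. The mean profile passed 0.5, the middle of the order, at -51.7 kb in KO, at the HOXA2 end of the cluster, and at 164 kb in WT, beyond HOXA13. Over the 1 Mb around the cluster, the stretch later than 0.5 measured 457.5 ± 34.5 kb in KO, against 657.5 ± 91.6 kb in WT (SD, n = 8 plates), shorter in KO on 8 of 8 plates (KO minus WT -40 kb at the least and -340 kb at the most; measured after the profile had been seen, with no test).

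**Figure D2:**
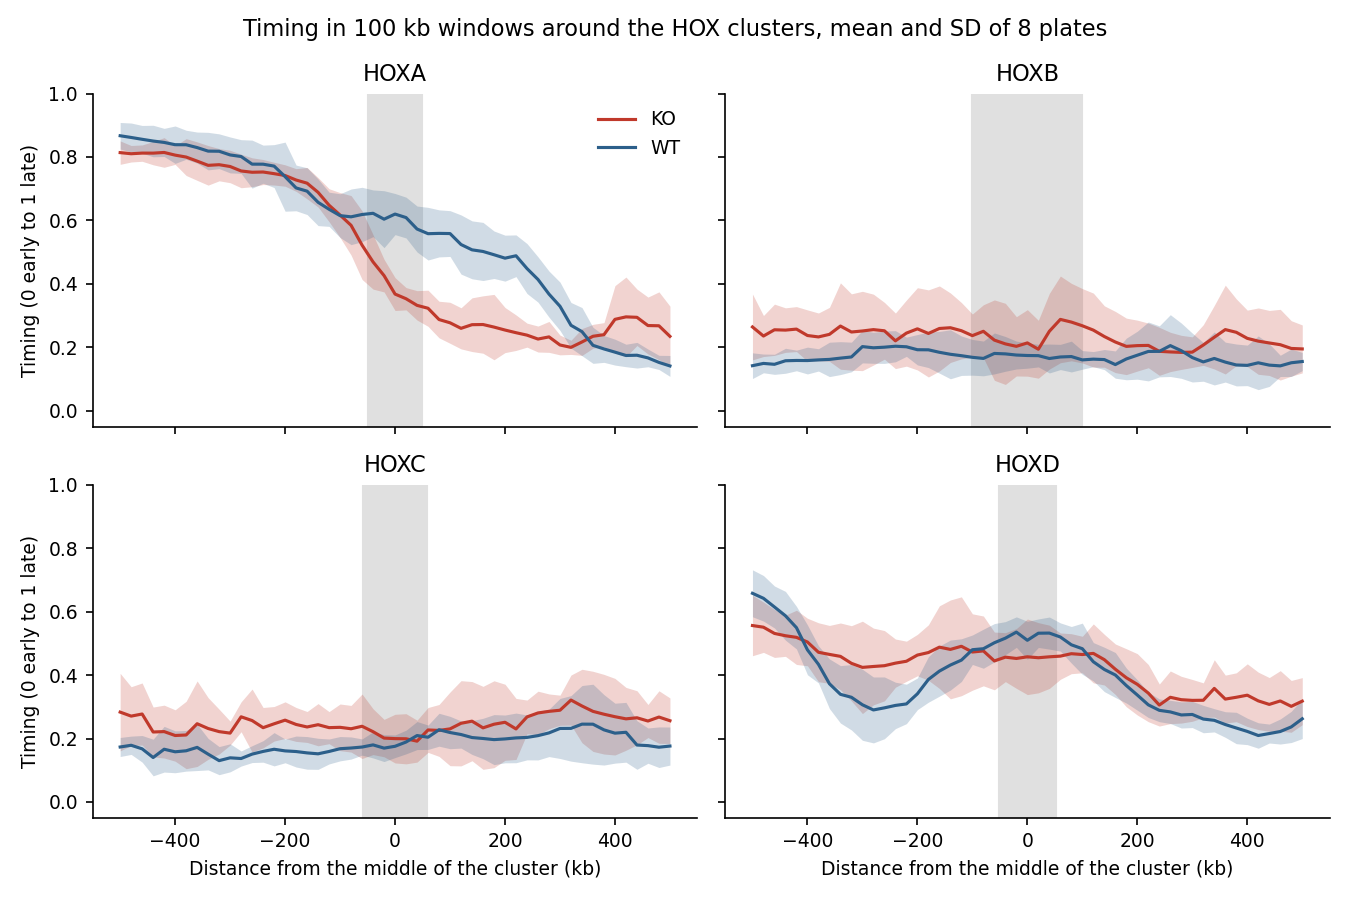
Timing in 100 kb windows (vertical axis, 0 early to 1 late) against distance from the middle of each cluster in kb; lines are means over 8 plates, bands are SD, and grey marks the cluster. In HOXA the KO line passes 0.5 at -51.7 kb and the WT line at 164 kb; in HOXB and HOXC both lines stay at or below 0.321.

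Fixed 200 kb bins gave the same place for the change. The bin with most of the cluster (chr7:27000001-27200000) had a timing of 0.513 in KO and 0.614 in WT (KO minus WT -0.113 ± 0.0265, adjusted p = 0.00100), and the next (chr7:27200001-27400000), which holds the first bases of HOXA13 and all of EVX1, had 0.265 in KO and 0.517 in WT (-0.264 ± 0.0265, adjusted p = 2.29e-10). The bins on either side of this pair were not called: KO minus WT was -0.0244 in the lower one and -0.0325 in the higher one (adjusted p = 0.548 and 0.352). These bins were named after their values had been seen, and the first of the called pair holds all of HOXA3. Molecules in the HOXA window did not differ beyond the spread, at 73.1 per library in KO and 136 in WT with the libraries' depths as they were (log2 KO over WT after scaling -0.22 ± 0.16, limma voom adjusted p = 0.526).

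The order of cells can be read in the other direction too, by asking how strongly the cluster was labelled in each of 4 equal stages of the order. In stage 1, the earliest, HOXA had 1.08 ± 0.302 times the autosome mean in KO and 0.459 ± 0.182 times in WT, and KO was higher in 8 of 8 plates (log2 KO over WT 1.23 ± 0.66). In stage 4 it had 0.203 ± 0.197 in KO and 1.11 ± 0.390 in WT, and KO was lower in 8 of 8 plates (log2 -2.74 ± 1.43). Both differences had an adjusted exact p of 0.0417 (two-sided permutation of signs by plate, 16 comparisons; ratios of shares with 0.5 added to each count). Stages 2 and 3 were not called (adjusted exact p = 0.844 each): stage 2 had 1.15 ± 0.901 in KO and 1.03 ± 0.237 in WT, and stage 3 had 1.41 ± 0.487 in KO and 1.37 ± 0.407 in WT. In all, 45.1% of the cluster's KO molecules and 18.9% of its WT molecules fell in stage 1, and 10.9% and 51.9% in stage 4. The stages are equal in cells and not in molecules, so these shares also depend on how many molecules each stage held. The relative densities above take this into account, and their mean was highest in stage 3 in both genotypes. The counts are low, with 29 KO and 247 WT molecules in stage 4. The cluster holds HOXA3, known to be earlier in KO when the genes were chosen. Leaving out 1 plate at a time gave log2 values of 1.11 to 1.35 in stage 1 and -2.97 to -2.39 in stage 4; the smallest exact p that 7 plates allow, 0.0156, adjusts to 0.0833 here, so those fits say nothing of the call. Both calls were lost, at an adjusted exact p of 0.0625, with cells of at least 300 molecules, with an order from 1 Mb bins and with an order made without the HOX chromosomes, while the direction stayed. In cells of at least 5000 molecules stage 1 was not called (log2 0.54, adjusted exact p = 0.222), while stages 2 and 3 were, with log2 1.38 and -1.76 (adjusted exact p = 0.0312 each). In all cells these 2 stages had log2 of -0.23 ± 1.53 and 0.05 ± 0.67, with no direction beyond the spread.

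**Figure D3:**
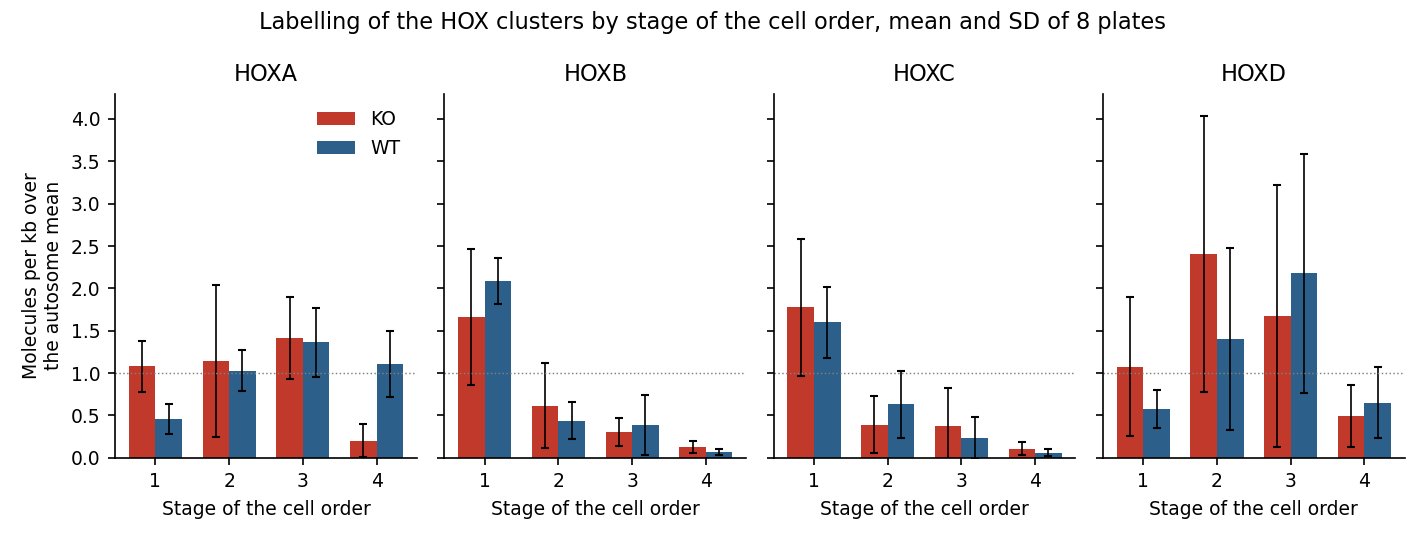
Labelled molecules per kb of each cluster over the autosome mean (vertical axis) in the 4 stages of the cell order, early to late; bars are means and lines SD over 8 plates, and the dotted line marks the autosome mean. In HOXA the KO bar is above WT in stage 1 and below it in stage 4, at 0.203 against 1.11, and HOXB and HOXC are labelled mostly in stage 1 in both genotypes.

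Along HOXA, mean timing in 50 kb windows ran from 0.349 at HOXA9 to 0.507 at HOXA2 in KO and from 0.528 at HOXA13 to 0.640 at HOXA3 in WT. HOXA2, which patterns the hindbrain and pharyngeal arches and stands at the late end, had 0.311 at the lowest, 0.529 at the median and 0.626 at the highest in KO libraries and 0.442, 0.627 and 0.787 in WT libraries, so that the groups overlapped. HOXA3, needed for thymus and parathyroid formation in the mouse, had 0.254, 0.366 and 0.492 in KO and 0.415, 0.636 and 0.754 in WT. HOXA13, which shapes the digits and the genital tract and stands at the far end, had 0.248, 0.361 and 0.516 in KO and 0.265, 0.590 and 0.713 in WT, overlapping as well. Its lowest WT value rests on 5 molecules (plate 8) and its highest KO value on 8 (plate 4). On plate 2 KO had 0.443, on 13 molecules, and WT 0.415, on 38. The mean difference of KO minus WT ran from -0.118 ± 0.131 at HOXA2 to -0.287 ± 0.133 at HOXA5, a gene of lung development (SD, n = 8 plates), and each of the 10 genes was earlier in KO on at least 6 of 8 plates.

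Few HOX windows reached the 10 molecules in every library that the test on 50 kb windows asked for. Of the 6 that did, 3 were called earlier in KO: HOXA2 by -0.126 ± 0.0423 (limma estimate and SE, adjusted p = 0.0324) and HOXA3 and HOXA4, whose windows held the same molecules, by -0.290 ± 0.0432. No p is given for that window, since it holds the whole of HOXA3, which earlier results had singled out as earlier in KO. The window of HOXA2 holds part of HOXA3 as well, so its p draws in part on that gene. HOXD4, HOXD8 and HOXD9 were not called, with differences of -0.0172, -0.0861 and -0.0479. Among the 3900 gene windows tested, 10.9% were earlier and 8.05% later in KO. The call for HOXA2 was lost without plate 2, 3, 6 or 8 (adjusted p = 0.0769 to 0.0851), and without plate 3, which let 10 HOX windows be tested, 6 were called. Over gene bodies HOXA3, likewise given as a description, had 0.341 in KO and 0.645 in WT (limma -0.351 ± 0.0444 after centring). Of 13716 gene bodies, 10.0% were called earlier and 2.09% later. HOXB3, the only other HOX gene with enough molecules in its body, had 0.246 in KO and 0.177 in WT (limma 0.0222 ± 0.0499 after centring, adjusted p = 0.847).

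With 100 kb windows 29 HOX genes could be tested, and 16 were called earlier and 0 later in KO, where 13.7% of 13800 genes were earlier and 2.09% later. The 16 were all 10 HOXA genes and HOXD3, HOXD9, HOXD10, HOXD11, HOXD12 and HOXD13. Estimates here are KO minus WT after each library was centred on its median, which lowered them. HOXD13 had 0.460 in KO and 0.509 in WT for an estimate of -0.101, and HOXD10 0.457 and 0.535 for -0.130. The part of centring in the number of calls was not tested. In HOXA the difference deepened from HOXA2 (0.497 in KO and 0.612 in WT, limma -0.168 ± 0.0361) to HOXA7 (0.357 in KO and 0.627 in WT, -0.322 ± 0.0295). No p is given for them, since both windows hold part or all of HOXA3. All 10 HOXA windows overlap HOXA3, so the calls in HOXA draw on a gene known in advance to be earlier in KO. Windows of 100 kb on a cluster of about the same length hold mostly the same molecules, so these calls are not independent of each other. A minimum of 5 molecules per library, set after the data had been seen, let 22 HOX genes be tested in 50 kb windows, and the 9 called, all earlier in KO, were HOXA genes (9.8% of 11171 genes were earlier and 1.5% later). Of these 9 windows, all but that of HOXA13 overlap HOXA3.

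**Figure D4:**
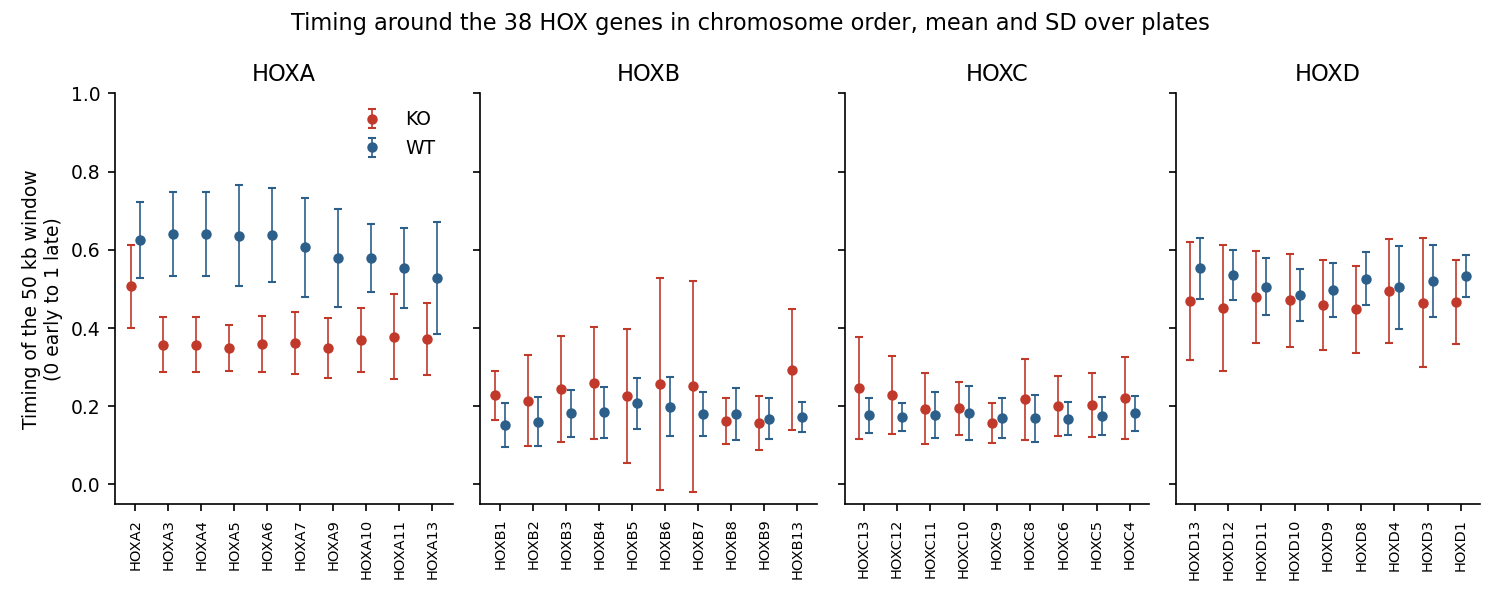
Timing of 50 kb windows (vertical axis, 0 early to 1 late) on the 38 HOX genes in chromosome order; points are means and bars SD over plates. KO lies below WT at each HOXA gene, by -0.118 at HOXA2 and -0.287 at HOXA5, and the bars overlap throughout the other clusters.

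**Figure D5:**
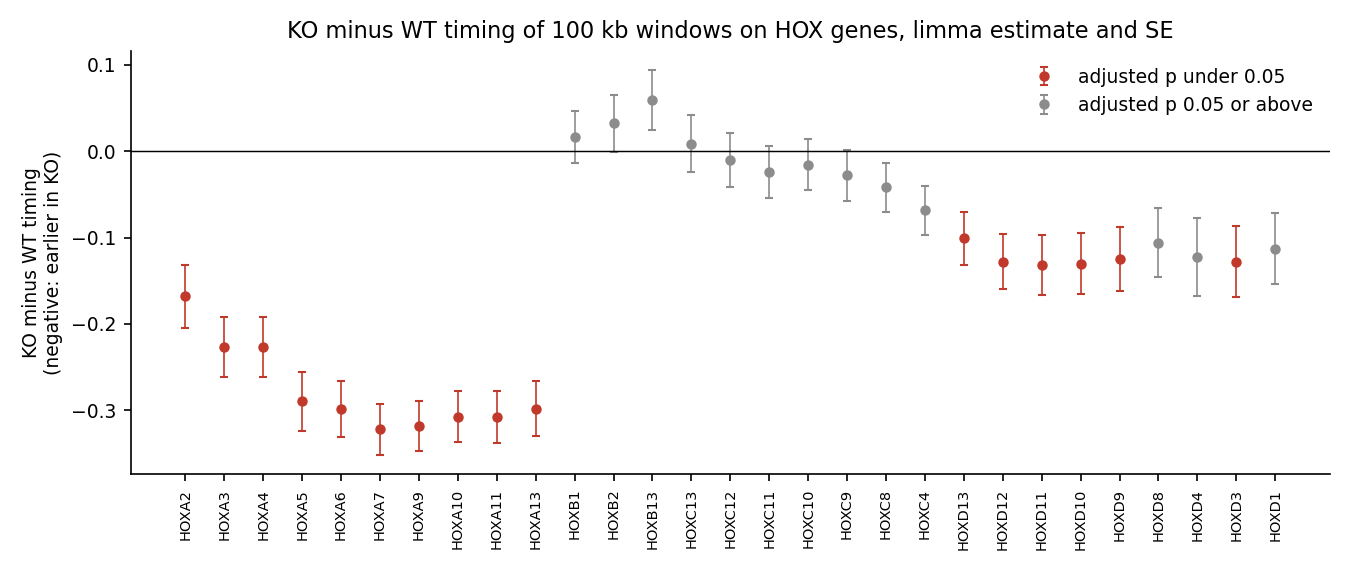
KO minus WT timing (vertical axis, negative where KO was earlier) of 100 kb windows on the 29 HOX genes that could be tested. Points are limma estimates after each library was centred on its median and bars SE, red where the adjusted p was under 0.05. All 10 HOXA genes lie between -0.322 and -0.168, and the HOXD genes between -0.132 and -0.101.

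HOXA2 and HOXA13 stand at the 2 ends of the HOXA cluster, HOXD13 stands at an end of the other middle cluster, and HOXB1 represents the early pair. The 250 bases before each start are shown from RefSeq (GRCh38.p14), 5′ to 3′ on the gene's strand, with CG pairs in capitals, since CG-rich promoters are the usual landing places of Polycomb and Trithorax complexes. They lie at chr7:27102684-27102933 (minus strand), chr7:27200092-27200341 (minus), chr2:176092471-176092720 (plus) and chr17:48531012-48531261 (minus).
HOXA2: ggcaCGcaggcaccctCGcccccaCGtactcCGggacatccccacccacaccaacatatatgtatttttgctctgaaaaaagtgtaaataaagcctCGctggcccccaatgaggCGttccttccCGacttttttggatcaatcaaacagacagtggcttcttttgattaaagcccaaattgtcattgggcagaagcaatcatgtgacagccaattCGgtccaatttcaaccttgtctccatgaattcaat
HOXA13: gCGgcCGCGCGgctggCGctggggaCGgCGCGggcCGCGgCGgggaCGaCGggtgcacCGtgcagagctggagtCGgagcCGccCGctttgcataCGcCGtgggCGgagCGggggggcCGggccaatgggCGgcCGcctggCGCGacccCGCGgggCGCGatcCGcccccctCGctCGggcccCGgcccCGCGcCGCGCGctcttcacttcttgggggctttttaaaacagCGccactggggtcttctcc
HOXD13: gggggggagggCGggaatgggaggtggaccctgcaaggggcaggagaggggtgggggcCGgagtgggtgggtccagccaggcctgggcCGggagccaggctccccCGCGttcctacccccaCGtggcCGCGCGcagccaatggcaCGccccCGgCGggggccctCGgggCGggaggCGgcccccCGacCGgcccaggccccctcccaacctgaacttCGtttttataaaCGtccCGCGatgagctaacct
HOXB1: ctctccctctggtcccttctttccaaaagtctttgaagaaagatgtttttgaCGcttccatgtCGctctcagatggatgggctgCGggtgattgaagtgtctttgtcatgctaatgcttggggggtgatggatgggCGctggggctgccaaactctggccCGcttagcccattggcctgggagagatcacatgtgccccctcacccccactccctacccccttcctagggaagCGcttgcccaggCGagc
HOXA2 has 8 CG pairs, HOXA13 has 40, HOXD13 has 21 and HOXB1 has 7, and 56.3%, 2.16%, 30.2% and 58.9% of 35114 RefSeq promoters have as many or more. The table had 27 entries for 20 HOX genes, of which 7 were starts of HOXA3 and 1 was in HOXB, and HOXC4 and HOXC5 had the same start. The median of these entries was 19 CG pairs, against 11 over all promoters, and 70.4% of them were above that median, against 48.5% of all promoters. Among the HOXA entries CG content varied from 0 pairs, at a start of HOXA3, to 40 pairs at HOXA13. Its relation to timing was not tested.

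HOXD was not called as a whole, and its plates differed. Across the cluster (chr2:176087487-176190907) timing was 0.266 at the lowest, 0.463 at the median and 0.700 at the highest in KO libraries, and 0.428, 0.532 and 0.576 in WT libraries. The groups overlapped: KO was earlier on 7 of 8 plates and later on plate 8, where KO minus WT was 0.230 on only 22 KO and 23 WT molecules. In the 200 kb window KO minus WT was -0.0703 ± 0.0298 (limma adjusted p = 0.0728), with the plate as a block the adjusted p was 0.0456, and without plate 8 the difference was -0.0895 (adjusted p = 0.0241). With equal weight per labelled cell it was -0.0151 and in cells of at least 5000 molecules -0.0254, neither called (adjusted p = 0.736 and 0.349). No stage of the order was called in HOXD (adjusted exact p = 0.450 to 0.625). Relative to the autosome mean it was labelled most strongly in the middle of the order, with 2.40 ± 1.63 in KO and 1.40 ± 1.08 in WT in stage 2, and 1.67 ± 1.55 in KO and 2.18 ± 1.42 in WT in stage 3.

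The profile around HOXD was flatter in KO. In 100 kb windows, timing 20 kb before the middle of the cluster was 0.452 ± 0.0941 in KO and 0.535 ± 0.0480 in WT. At -220 kb it was 0.444 ± 0.0632 in KO and 0.309 ± 0.0622 in WT, later in KO on 8 of 8 plates, and at 420 kb 0.319 ± 0.0905 in KO and 0.209 ± 0.0401 in WT. The WT mean passed 0.5 upward at -61.9 kb and downward at 76.2 kb, while the KO mean stayed below 0.5 throughout the cluster. Over the whole stretch KO means ran from 0.301 to 0.556 and WT means from 0.209 to 0.658. Among the 200 kb bins, chr2:175400001-175600000 was earlier in KO (0.516 against 0.730 in WT, -0.226 ± 0.0315, adjusted p = 2.75e-07) and chr2:175800001-176000000 was later in KO (0.451 against 0.327 in WT, 0.112 ± 0.0289, adjusted p = 0.00251); they were named after their values had been seen. Further on, chr2:176400001-176600000 was later (0.325 in KO and 0.241 in WT, adjusted p = 0.0337) and chr2:176600001-176800000 earlier in KO (0.425 in KO and 0.479 in WT, adjusted p = 0.0419). The bin at 175800001 was not called with equal weight per labelled cell (adjusted p = 0.0927). HOXD12 had the lowest 50 kb difference of the cluster, -0.0842 ± 0.172, and HOXD4 the highest, -0.00915 ± 0.124. HOXD13, which directs digit formation, had a 50 kb timing of 0.469 ± 0.151 in KO and 0.552 ± 0.0784 in WT, and HOXD1, at the other end, 0.468 ± 0.107 in KO and 0.534 ± 0.0537 in WT (SD, n = 8). In 100 kb windows the 9 HOXD genes had limma estimates, after centring, of -0.132 to -0.101. The 6 named above were called and HOXD1, HOXD4 and HOXD8 were not (adjusted p = 0.0616 to 0.0718).

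No difference was called in the HOXB and HOXC windows. HOXB (chr17:48528526-48728750) had 0.0910, 0.241 and 0.431 in KO libraries and 0.135, 0.170 and 0.214 in WT libraries, with KO later on 6 of 8 plates. HOXC (chr12:53938831-54056030) had 0.0926, 0.225 and 0.287 in KO and 0.132, 0.165 and 0.232 in WT, again with KO later on 6 of 8 plates. The KO values spread more widely than the WT values in both clusters, and the KO median of HOXB lay above the highest WT library. KO also had fewer molecules, 507 against 957 in WT in HOXB and 271 against 476 in HOXC. The highest KO value of HOXB, on plate 2, rests on 23 molecules. The part of molecule number in the spread was not tested. In the 200 kb windows KO minus WT was 0.0508 ± 0.0282 in HOXB and 0.0145 ± 0.0267 in HOXC (limma adjusted p = 0.178 and 0.711), in a fit where the earliest of 4 equal groups of bins had a median of 0.0422 and 12.9% of those bins were later in KO. Stage 4 of the order differed: HOXB had 0.127 ± 0.0744 times the autosome mean in KO and 0.0668 ± 0.0378 in WT, higher in KO on 8 of 8 plates (log2 0.96 ± 1.07, adjusted exact p = 0.0417), on 38 KO and 29 WT molecules. It was lost with cells of at least 300 molecules, an order from 1 Mb bins and an order made without the HOX chromosomes (adjusted exact p = 0.0833 to 0.167).

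Among the HOXB genes, HOXB1, which specifies part of the hindbrain, had 0.228 ± 0.0629 in KO and 0.152 ± 0.0560 in WT, and HOXB13, known from the prostate, had the largest difference, with 0.294 ± 0.155 in KO and 0.174 ± 0.0386 in WT (later in KO on 6 of 8 plates). HOXB8 and HOXB9 had no molecule in 1 library and averaged -0.0262 ± 0.0554 and -0.0184 ± 0.0511 (KO minus WT, SD, n = 7 plates). HOXC13, a gene of hair formation, had 0.246 ± 0.130 in KO and 0.177 ± 0.0442 in WT, and HOXC4, at the other end, 0.221 ± 0.104 in KO and 0.183 ± 0.0445 in WT. HOXC9 had the lowest difference of its cluster, -0.0139 ± 0.0952. In 100 kb windows 3 HOXB and 7 HOXC genes could be tested and 0 were called. Their limma estimates, after each library was centred on its median, ran from -0.0686 at HOXC4 to 0.0594 at HOXB13. Before centring HOXC4 had 0.191 in KO and 0.207 in WT, and HOXB13 0.272 in KO and 0.160 in WT.

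The miR-196 family shows the split between clusters with nearly the same sequence at 3 places. These microRNAs target HOX messages and are encoded inside HOXA, HOXB and HOXC. Mature sequences are from RefSeq (GRCh38.p14), 5′ to 3′, with the seed, bases 2 to 8, in capitals; miR-10a and miR-615, which also lie inside the early clusters, are shown for comparison.
miR-196b-5p (MIR196B, HOXA, chr7:27169528-27169549): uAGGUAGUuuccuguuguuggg
miR-196a-5p (MIR196A1, HOXB, chr17:48632532-48632553): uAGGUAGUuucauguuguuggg
miR-196a-5p (MIR196A2, HOXC, chr12:53991762-53991783): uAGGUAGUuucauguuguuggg
miR-10a-5p (MIR10A, HOXB, chr17:48579904-48579926): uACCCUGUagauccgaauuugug
miR-615-3p (MIR615, HOXC, chr12:54034010-54034031): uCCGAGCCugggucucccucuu
The 3 genes of the miR-196 family share the seed AGGUAGU, and MIR196A1 and MIR196A2 give the same mature sequence; miR-196b-5p differs from it by A12C, counted from 1 at the 5′ end with the base of miR-196a-5p first. Their 50 kb windows differed in timing as their clusters do. The window of MIR196B had 0.360 ± 0.0692 in KO and 0.571 ± 0.111 in WT, earlier in KO on 7 of 8 plates. Those of MIR196A1 had 0.192 ± 0.106 in KO and 0.151 ± 0.0362 in WT, and of MIR196A2 0.198 ± 0.0649 in KO and 0.180 ± 0.0637 in WT (SD, n = 8). MIR10A, within HOXB3, had 0.250 ± 0.127 in KO and 0.191 ± 0.0683 in WT, and MIR615, within HOXC4 and HOXC5, 0.235 ± 0.107 in KO and 0.181 ± 0.0407 in WT. These windows share their molecules with the HOX genes around them.

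The amount of labelling was not called different on any HOX gene, in a fit that called few genes at all. All 38 windows of 50 kb had a mean of at least 10 molecules and were tested, and 0 were called fewer or more in KO (limma voom; 0.164% of 16423 genes were fewer and 0% more). With 100 kb windows 0 HOX genes were called as well, where 1.21% of 17690 genes were fewer and 0.0904% more. At an unadjusted p under 0.05 there were 3 HOX genes in 50 kb windows, against 9.99% of all genes. Their median log2 KO over WT was -0.17, against -0.10 over all genes, with the lowest at HOXB13 (-0.69, adjusted p = 0.394) and the highest at HOXD4 (0.25). Within clusters the ratio ran from HOXA13 (-0.54) to HOXA9 (0.02), from HOXB13 to HOXB5 (-0.23), from HOXC13 (-0.68) to HOXC5 (0.15) and from HOXD12 (-0.14) to HOXD4. Cluster medians were -0.17 in HOXA, -0.46 in HOXB, -0.13 in HOXC and 0.18 in HOXD. The 200 kb windows were not called either, at log2 -0.39 ± 0.21 in HOXB, -0.35 ± 0.18 in HOXC and 0.04 ± 0.19 in HOXD (adjusted p = 0.335 to 0.932, where 2.7% of 13423 windows were fewer and 0.462% more in KO). The fixed bin chr17:48400001-48600000, which holds HOXB1 to HOXB5 and part of HOXB6, was called fewer, at 53.2 molecules per library in KO and 136 in WT (log2 -0.76 ± 0.21, adjusted p = 0.0253), and lost the call without plate 2, 3 or 8 (adjusted p = 0.0528 to 0.198).

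Of genes that work with the HOX proteins or regulate the clusters, 4 of 8 cofactors, 9 of 14 Polycomb genes and 5 of 9 Trithorax and boundary genes were earlier than the median of all genes. Of 9 HOX cofactors, the TALE homeodomain partners, 8 could be measured, from PBX4 at 0.173 ± 0.0647 to MEIS1 at 0.804 ± 0.0447. Of 16 Polycomb genes, which keep HOX clusters silent, 14 were measured, with a median of 0.205, from SUZ12 at 0.183 ± 0.0423 to PHC1 at 0.790 ± 0.0384. All 9 autosomal genes of the Trithorax and boundary list, which counter Polycomb or shape chromosome loops, lay between KDM6B at 0.170 ± 0.0291 and RAD21 at 0.290 ± 0.0681. The number of these genes with enough molecules for the timing test was 1, 2 and 0, and 0 were called. Of 10 retinoic acid genes, whose signal switches HOX genes on in order, 5 were tested and RXRG, a retinoid X receptor, was called earlier (0.535 ± 0.0799 in KO and 0.649 ± 0.0882 in WT; limma -0.122 ± 0.0435, adjusted p = 0.0449), where 10.9% of all gene windows tested were earlier; the list ran from CYP26B1 at 0.190 ± 0.0443 to ALDH1A2 at 0.651 ± 0.0408. In molecules 0 genes of these lists were called.

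EVX1, the even-skipped homeobox gene next to HOXA13 (chr7:27242802-27247830), was called earlier in KO. It had 0.160 at the lowest, 0.229 at the median and 0.321 at the highest in KO libraries, against 0.437, 0.587 and 0.672 in WT libraries. The groups did not overlap, KO was earlier on 8 of 8 plates, and KO minus WT was -0.342 ± 0.0391 (limma, adjusted p = 2.28e-07), where 10.9% of gene windows were earlier. EVX1 lies in the stretch beyond HOXA13 whose shift is described above, and its list was chosen with earlier results of these data known. The call is therefore not independent of the HOXA result. EVX2, beside HOXD13, had 0.473 ± 0.118 in KO and 0.540 ± 0.0965 in WT and had too few molecules for the test. The 7 genes of the even-skipped and ParaHox list ran from GSX2 at 0.185 ± 0.0586 to PDX1 at 0.734 ± 0.0761, and EVX1 was the only 1 tested. Of 43 protein-coding genes within 500 kb of a cluster, 38 were measured, from SNF8 beside HOXB at 0.143 ± 0.0361 to SKAP2, on the late side of HOXA, at 0.824 ± 0.0553; 3 were tested and EVX1 was the only 1 called. SKAP2 had 0.794 ± 0.0920 in KO and 0.825 ± 0.0807 in WT, and HIBADH, on the early side of HOXA and named after its values had been seen, 0.318 ± 0.188 in KO and 0.165 ± 0.0345 in WT.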

How the data were processed

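In the deposited files a row is 1 fragment, and its columns give the cell, where it lies (chromosome and base), its length with a sign and its genotype, per the file headers; these values are positions, neither counts nor a scaled unit. Per the submitters' processing notes the build is GRCh38; aligner, filters and handling of duplicates: not given in the sources used here. Genotype was read from the column named treatment. Fragments were counted as molecules; 3.44% to 4.79% per plate shared cell, position and direction with an earlier one. Positions, counted from 0, had 1 added. Depth was 1746074 to 4181841 fragments per plate.

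Cells with at least 1000 autosomal molecules were ranked along axis 1 of correspondence analysis over 500 kb autosomal bins (18.8% of the variation; bins under 0.1 of the median left out), the gene-rich end being early. RefSeq gave genes (GRCh38.p14; no strand was used). Timing and molecules per library were tested with limma and limma voom (version 3.58.1, R 4.3.3) over 200 kb bins plus 4 cluster windows, 50 kb windows on all genes (timing: at least 10 molecules in every library; molecules: a mean of at least 10) and gene bodies (at least 10 per plate), each library centred on its median timing or scaled by its total, with Benjamini-Hochberg adjustment over all windows. Single values were compared by exact sign-flip permutation over 8 plates. Plates pair the libraries, since the titles place both genotypes on each, but the main limma fits held no term for the plate. Same-plate deviations of log2 molecules in 50 kb gene windows correlated by 0.0283 on average (-0.0319 to 0.0883, other plates -0.00406). This was not measured for timing. The fits were tested on simulated data.

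Members and lists were chosen with earlier results of these data known. Named with values are, in each cluster, the genes at its ends, the earliest and the latest, those with the lowest and highest KO minus WT timing and molecule ratio, HOXA3 and every member called; of each list, the earliest, the latest and every gene called. Other names are marked where they occur. Alternatives covered the cell minimum, shared positions, the order, cell weights, centring, scaling, window and flank sizes, minimum molecules, the plate block and leaving out each plate.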

Additional observations from a re-analysis of the deposited data

Results flagged for a closer look

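Among 24 sets of 8 plates drawn from the timing and relative density of the 4 clusters, 3 had a plate whose gap to the nearest other plate exceeded 0.526 of the range, Dixon's critical value for 8 values; chance flags about 1 in 20 sets. KO minus WT timing of HOXD was 0.230 on plate 8, on only 22 KO and 23 WT molecules, and between -0.162 and -0.0347 on the other 7 plates. The relative density of HOXC in KO was 1.13 on plate 7. The relative density of HOXD in WT was 1.49 on plate 4.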

How the results depend on the processing

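The HOXA window stayed earlier in KO and called under every alternative run, from -0.199 to -0.179 without 1 plate each and from -0.195 to -0.105 otherwise. The window holds HOXA3, known to be earlier in KO when the genes were chosen. These runs reuse the same cells, so they show only how the value depends on the settings. In cells of at least 5000 molecules, timing was 0.266 in HOXB and 0.266 in HOXC, and cluster minus flanks 0.0495 in HOXB (adjusted exact p = 0.0104) and 0.0494 in HOXC (0.0156, reversed). For HOXA, stage 2 of the order then had log2 1.38 and stage 3 -1.76, both called, where all cells had no direction beyond the spread. With equal weight per labelled cell, timing was 0.321 in HOXB and 0.284 in HOXC, and cluster minus flanks -0.00967 in HOXA, -0.0597 in HOXB (reversed), -0.117 in HOXC and 0.0343 in HOXD. Flanks of 200 kb gave -0.0392 in HOXA and 0.0793 in HOXD, both no longer called. Density relative to the flanks was log2 0.19 in HOXB and 0.0398 in HOXC, both reversed. The number of stages called, 3 in the report, was 0 with cells of at least 300 molecules, with the order from 1 Mb bins and with the order without the HOX chromosomes. With the plate as a replicate block the HOXD window was called at -0.0703 (adjusted p = 0.0456). The causes were not tested.

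Leaving out 1 plate gave cluster minus flanks of -0.0529 to -0.0383 in HOXA and 0.0916 to 0.119 in HOXD, each losing the call in 7 of 8 cases (adjusted exact p up to 0.0625, where 7 plates allow 0.0156 before adjustment); 0 to 0 stages called; -0.0895 to -0.0522 in the HOXD window; and 2 to 6 HOX genes earlier. HOX genes called earlier were 16 with 100 kb windows and 9 with a minimum of 5 molecules, added after seeing the data. Over all genes, 425 were earlier, against 1889 with 100 kb windows and 1095 with the minimum of 5, and 314 were later, against 168. In molecules 27 genes were fewer, against 16 in cells of at least 5000 molecules, 41 with the block, 17 with TMM scaling, 6 with 30 kb and 214 with 100 kb windows and 9 to 21 without 1 plate, and 0 were more, against 16 with 100 kb windows. Cells of at least 5000 molecules, equal weights, 30 kb windows and a minimum of 20 left no HOX gene to test for timing at 50 kb and gave no value. Few molecules per cluster and library limit all timing values.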
